A study of Mus musculus with 25 samples.

Results

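Gpi1, Aldoa, Aldoc, Tpi1, Pgk1, Pgam1 and Eno2 encode enzymes that act in glycolysis between glucose 6-phosphate and phosphoenolpyruvate. These 7 genes were chosen by symbol, with earlier results of these data known. Each was read on the Affymetrix probe set (a group of short probes for 1 transcript) with the highest mean over all 25 arrays. A probe set that names the gene alone was found for 6 of the 7, among 18162 genes read in the same way. Gpi1 was not analysed here for lack of such a probe set in the annotation used.

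The arrays cover 3 mouse embryonic fibroblast lines in 11 groups. The Tsc2-null line (Tsc2-/- p53-/-) and the Tsc1-null line (Tsc1-/- p53+/+, immortalized by the 3T3 schedule) each had 3 vehicle plates and 2 plates at each of 2, 6, 12 and 24 h of 20 nM rapamycin. The wild-type line (Tsc2+/+ p53-/-, from a littermate of the Tsc2-null line) had 3 vehicle plates. All plates, of 10 cm and at 70% confluence, were serum starved for 24 h, and the vehicle was DMSO. Free text in the labels gives 24 h for all vehicle plates, so the 2, 6 and 12 h plates have no vehicle of their own time. For the Tsc1-null plates titled 24 and 12 h that text gives 14 and 11 h, and the titles were followed. Each genotype is 1 line, so genotype and line cannot be told apart, and the Tsc1-null line also differs from the wild-type line in p53 and in how it was immortalized. Rapamycin was read against the vehicle of the same null line and, at 24 h, also against wild-type vehicle; no rapamycin arrays of wild-type cells were used here. Replicates are separate plates of 1 line, and p-values measure the spread between them.

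Glycolysis splits fructose 1,6-bisphosphate with aldolase (Aldoa, Aldoc), interconverts the triose phosphates with Tpi1, and carries the carbon on through glyceraldehyde 3-phosphate dehydrogenase, phosphoglycerate kinase (Pgk1), phosphoglycerate mutase (Pgam1) and enolase (Eno2). Aldoa is the broadly expressed aldolase and Aldoc the form known from brain, and Eno2 is the enolase known from neurons. TSC1 and TSC2 form the complex that restrains mTORC1, the rapamycin-sensitive kinase complex that promotes growth and biosynthesis. mTORC1 is known to raise translation of HIF1A, a transcription factor whose targets include many glycolytic genes and whose DNA sites hold the core ACGTG or GCGTG.

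The promoters are printed because the 6 measured genes moved together in several comparisons and because ACGTG and GCGTG are the letters at the core of HIF sites. RefSeq promoters (GRCm38.p6) were matched for 7 of 7 genes, with 10 promoters in all. Each runs from 250 bases before the transcript start to 50 after it, and the 250 bases before the start are printed 5′ to 3′ on the gene's strand, with every ACGTG and every GCGTG, on either strand, in capitals. The Aldoa window is chr7:126799179-126799428 (minus strand), the Aldoc window chr11:78322823-78323072 (plus), the Tpi1 window chr6:124814159-124814408 (minus), the Pgk1 window chrX:106186850-106187099 (plus), the Pgam1 window chr19:41911621-41911870 (plus) and the Eno2 window chr6:124769674-124769923 (minus).
Aldoa: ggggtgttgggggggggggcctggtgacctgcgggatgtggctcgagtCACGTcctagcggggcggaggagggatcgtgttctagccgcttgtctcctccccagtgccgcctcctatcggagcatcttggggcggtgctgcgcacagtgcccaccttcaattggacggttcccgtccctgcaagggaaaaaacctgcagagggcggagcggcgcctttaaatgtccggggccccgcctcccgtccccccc
Aldoc: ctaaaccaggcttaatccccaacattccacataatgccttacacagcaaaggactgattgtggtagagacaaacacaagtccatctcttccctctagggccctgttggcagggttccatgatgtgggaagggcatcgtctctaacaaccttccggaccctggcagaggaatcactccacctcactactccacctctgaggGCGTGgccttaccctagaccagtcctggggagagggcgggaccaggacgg
Tpi1: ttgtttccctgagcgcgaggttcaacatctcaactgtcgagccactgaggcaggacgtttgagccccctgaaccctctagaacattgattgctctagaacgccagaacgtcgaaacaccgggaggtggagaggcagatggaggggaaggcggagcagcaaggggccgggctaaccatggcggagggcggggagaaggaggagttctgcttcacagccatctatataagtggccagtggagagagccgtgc
Pgk1: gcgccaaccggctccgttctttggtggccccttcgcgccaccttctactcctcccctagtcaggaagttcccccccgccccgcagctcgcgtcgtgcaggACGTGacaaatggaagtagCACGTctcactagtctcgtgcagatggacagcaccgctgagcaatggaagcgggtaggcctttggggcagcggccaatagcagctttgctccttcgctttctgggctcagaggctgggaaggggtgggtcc
Pgam1: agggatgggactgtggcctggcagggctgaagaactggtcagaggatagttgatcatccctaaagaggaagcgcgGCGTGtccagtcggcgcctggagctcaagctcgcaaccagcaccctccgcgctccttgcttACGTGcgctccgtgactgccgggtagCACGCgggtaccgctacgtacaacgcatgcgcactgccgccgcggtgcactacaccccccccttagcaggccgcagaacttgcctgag
Eno2: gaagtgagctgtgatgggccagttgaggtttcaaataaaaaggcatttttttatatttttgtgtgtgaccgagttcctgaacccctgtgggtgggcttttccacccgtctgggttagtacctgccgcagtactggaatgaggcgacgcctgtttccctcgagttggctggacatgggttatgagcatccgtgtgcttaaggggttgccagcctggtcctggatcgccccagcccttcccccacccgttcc

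Over the full windows, ACGTG on either strand was found in 5 of the 10 promoters, those of 4 genes (Aldoa, Aldoc, Pgk1 and Pgam1), and GCGTG in 3. ACGTG was in 19.6% and GCGTG in 32.4% of all 32851 promoters of the same length. Counted from the transcript start to the first base of the match, the ACGTG matches lie at -202 in Aldoa, at -150 and -131 in Pgk1, at -114 in Pgam1 and at 28 in Aldoc, past the printed stretch. The overlapping windows of a pair of Aldoa starts share 1 ACGTG match. None of the windows of Gpi1, Tpi1 and Eno2 holds either pentamer, and no member's window holds CACGTG, in which ACGTG lies and which 7.15% of all promoters hold. GGGCGG was in 7 of the 10 promoters, against 35.7% of all. A match is a description of the letters.

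The lines were checked against the labels first. On its brightest probe set Tsc1 read 6.51 to 7.38 on the 11 Tsc1-null arrays, against 8.11 to 8.33 on the 3 wild-type arrays (log2 values), with no overlap. On another it read 6.55 to 6.94 against 7.30 to 7.40, also apart. On the dimmest it read 4.62 to 5.10 against 4.62 to 4.84, and the ranges overlapped. The single Tsc2 probe set read 7.85 to 9.59 on the 11 Tsc2-null arrays (median 8.97), against 9.67 to 9.74 in wild type, also with no overlap. These null-line ranges pool vehicle and rapamycin arrays, while the wild-type arrays are vehicle alone. With vehicle Tsc2 was lower by only 0.21 ± 0.08 in limma's test (SE, adjusted p = 0.042), so the pooled range is not a check of genotype alone. Whether these probes lie in the deleted part was not tested. Of 10 fibroblast markers, 9 were above a log2 value of 8 in both null lines with vehicle and 10 in wild type, and their summed linear level was 72400 to 76418 in Tsc2-null, 76081 to 82943 in Tsc1-null and 98080 to 98966 in wild type. Thy1, a fibroblast surface marker, was lower by 3.96 in the Tsc2-null line and by 3.15 in the Tsc1-null line. Array medians lay between 6.26 and 6.41, and arrays of the same group correlated at 0.996 to 0.998 over all probe sets.

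Both null lines had higher levels of Aldoa, Tpi1, Pgk1 and Pgam1 than the wild-type line, while Aldoc and Eno2 separated the null lines from each other. Against wild-type vehicle, all 6 measured members were called higher in Tsc2-null cells, where 23.6% of the 18162 genes were called higher and 45.0% called in either direction. In Tsc1-null cells 4 were called higher and 1 lower, where 21.3% of genes were called higher, 20.8% lower and 42.1% in either direction. The median difference of the 6 was 1.33 in the Tsc2-null line and 0.55 in the Tsc1-null line, against -0.01 and -0.02 over all genes. A call means an adjusted p under 0.05 in limma's moderated test, with Benjamini-Hochberg adjustment over all genes, and all differences are on the log2 scale. The 2 comparisons share the wild-type arrays. The members and the gene lists below were chosen with earlier results of these data known. Shares over all genes are thus given beside their counts as a description and not as a test. In whole plates, fewer cells that express a gene and less RNA per cell cannot be told apart.

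Aldoa read 13.52, 13.53 and 13.53 on the Tsc2-null arrays and 13.71, 13.70 and 13.62 on the Tsc1-null arrays, against 12.66, 12.63 and 12.65 in wild type. Both null lines lay above every wild-type array. Aldoa was higher by 0.88 ± 0.05 in the Tsc2-null line (1.84-fold, adjusted p = 3.67e-12) and by 1.03 ± 0.05 in the Tsc1-null line (2.04-fold, adjusted p = 2.64e-13).

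Aldoc read 12.13, 12.23 and 12.25 on the Tsc2-null arrays and 6.29, 6.70 and 6.30 on the Tsc1-null arrays, against 7.96 on each of the 3 wild-type arrays. The deposited wild-type values are identical to the last digit, as on 16 of the 45101 probe sets, so that group shows no spread of its own and the error comes from all 11 groups. The order was Tsc2-null, wild type and Tsc1-null, with no overlap, and the Tsc1-null values lay near the median of their arrays. The Tsc2-null line was higher by 4.24 ± 0.11 (18.9-fold, adjusted p = 1.14e-18), rank 30 from the highest of 18162 genes, and the Tsc1-null line was lower by 1.54 (SE 0.11, adjusted p = 6.72e-11). The lower level in Tsc1-null cells rests on this probe set: on the second, dimmer Aldoc probe set the difference was -0.03 (adjusted p = 0.885), and the authors' deposited table of log2 ratios to wild type lists Aldoc at 0 on all Tsc1-null and wild-type arrays. The rise in Tsc2-null cells was 1.71 on the second probe set (adjusted p = 1.23e-10).

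Tpi1 read 13.96, 13.88 and 13.84 on the Tsc2-null arrays and 13.65, 13.69 and 13.57 on the Tsc1-null arrays, against 12.11, 12.21 and 12.19 in wild type. Every null array lay above every wild-type array by more than 1. Tpi1 was higher by 1.73 ± 0.06 in the Tsc2-null line (3.31-fold, adjusted p = 3.19e-16) and by 1.47 ± 0.06 in the Tsc1-null line (2.77-fold, adjusted p = 7.43e-15).

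Pgk1, which makes the first ATP of the pathway, read 14.08, 14.00 and 13.99 on the Tsc2-null arrays and 14.05, 14.01 and 13.90 on the Tsc1-null arrays, against 13.36, 13.45 and 13.51 in wild type. The null lines overlapped each other and lay above wild type. The difference was 0.58 ± 0.06 in the Tsc2-null line (adjusted p = 4.62e-08) and 0.54 ± 0.06 in the Tsc1-null line (adjusted p = 1.49e-07). These values lie near the top of the range of deposited values, which ends at 14.74. From the authors' deposited table of log2 ratios the same differences came to 0.14 (adjusted p = 0.488) and 0.08 (adjusted p = 0.745), and neither was called.

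Pgam1 read 13.57, 13.56 and 13.53 on the Tsc2-null arrays and 13.25, 13.19 and 13.09 on the Tsc1-null arrays, against 12.60, 12.59 and 12.68 in wild type. The 3 lines did not overlap. Pgam1 was higher by 0.93 ± 0.07 in the Tsc2-null line (adjusted p = 4.84e-11) and by 0.55 ± 0.07 in the Tsc1-null line (adjusted p = 2.52e-07).

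Eno2 read 10.28, 10.13 and 10.30 on the Tsc2-null arrays and 7.80, 8.09 and 8.23 on the Tsc1-null arrays, against 8.03, 7.70 and 7.50 in wild type. The Tsc2-null arrays stood above both other lines, and the Tsc1-null and wild-type arrays overlapped. The Tsc2-null difference was 2.49 ± 0.12 (5.62-fold, adjusted p = 4.62e-14). The Tsc1-null difference of 0.29 ± 0.12 was not called (adjusted p = 0.0505), and it was called without wild-type replicate 1 (0.44, adjusted p = 0.00352) or without Tsc1-null replicate 1 (0.41, adjusted p = 0.00886), and with quantile normalization, without the dimmest genes or with the trend and robust setting (adjusted p 0.0192 to 0.0324).

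**Figure D1:**
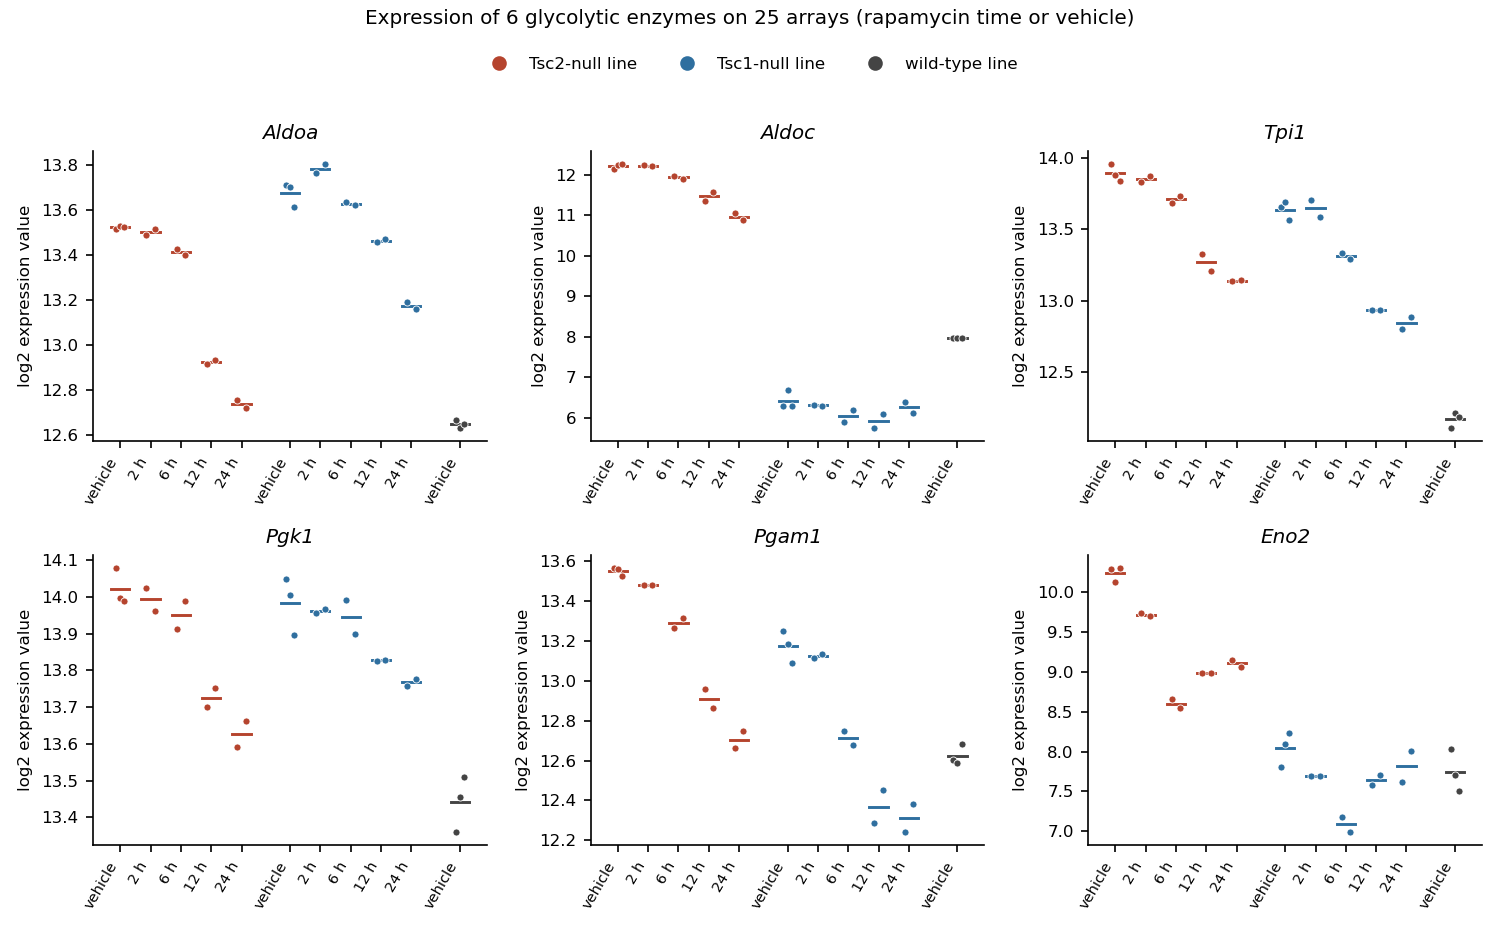
Log2 expression value of each measured enzyme (y axis, a separate scale per gene) on the 25 arrays, in the Tsc2-null line, the Tsc1-null line and the wild-type line from left to right, with vehicle and then 2 to 24 h of rapamycin within a null line. Points are arrays and bars are group means; Aldoc spans 6.29 between its highest and lowest group mean, and Pgk1 spans 0.58.

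Set directly against each other with vehicle, Tsc1-null cells were called lower than Tsc2-null cells for 4 members and higher for 1, where 43.4% of genes were called, 22.7% lower and 20.7% higher. Aldoc was lower in Tsc1-null by 5.78 (SE 0.11, adjusted p = 6.99e-21), rank 14 from the lowest of all genes. Eno2 was lower by 2.19 (SE 0.12, adjusted p = 4.78e-13), Pgam1 by 0.38 (adjusted p = 4.35e-05) and Tpi1 by 0.26 (adjusted p = 0.00143). Aldoa was higher by 0.15 (adjusted p = 0.023), a call lost without any 1 of the 3 Tsc2-null arrays or without Tsc1-null replicate 1 or 2 (adjusted p 0.05 to 0.0832), under median centring (adjusted p = 0.0682) and with only the compared groups (adjusted p = 0.076), and the difference was 0.0011 on the fifth Aldoa probe set. From the authors' deposited table Aldoa (0.17), Tpi1 (-0.15, adjusted p = 0.356) and Pgam1 (-0.0978, adjusted p = 0.625) were not called. The Pgk1 difference was -0.04 ± 0.06 and the ranges overlapped.

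Since Aldoc and Eno2 are known from brain, markers of neurons and glia were read beside them. None of 10 neuron markers was above a log2 value of 8 in either null line, against 1 of 10 (Tubb3) in wild type. Their summed linear level was 649 to 703 in the Tsc2-null line and 617 to 681 in the Tsc1-null line, against 872 to 913 in wild type. The median log2 level of the 10 was 5.97 in the Tsc2-null line and 5.88 in the Tsc1-null line, against 5.94 in wild type. Of the 10, 2 were called higher and 4 lower in Tsc2-null cells and 2 lower in Tsc1-null cells; Tubb3, a neuronal tubulin, had a difference of -1.70 in each. Nefm, a neurofilament gene, was higher by 1.36 in Tsc2-null cells (adjusted p = 4.19e-07), at a level of 5.19 against 3.83 in wild type. Of 8 glia markers measured, 1 was called higher in Tsc2-null cells (Slc1a3, by 1.27), and 1 was called higher (Slc1a3, by 1.36) and 1 lower (Mbp, -0.93) in Tsc1-null cells; Gfap read 6.28 in the Tsc2-null line and 6.39 in the Tsc1-null line, against 6.28 in wild type. Their summed level was 956 to 992 in the Tsc2-null line and 767 to 891 in the Tsc1-null line, against 695 to 740 in wild type. Beside the neuron and glia counts stand 45.0% (Tsc2-null) and 42.1% (Tsc1-null) of all genes called against wild type, in either direction. The part of these markers in the Aldoc and Eno2 levels was not tested.

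Rapamycin lowered the segment in Tsc2-null cells by 12 h, with Eno2 ahead of the other enzymes. At 2 h, 1 of 6 members was called lower (2.2% of genes were called, 1.19% lower). At 6 h, 2 were called lower (21.3% called, 9.7% lower). At 12 h and at 24 h all 6 were called lower, where 34.1% of genes were called and 17.7% lower at 12 h, and 35.6% and 18.1% at 24 h. The median of the 6 differences from vehicle was -0.03 at 2 h, -0.22 at 6 h, -0.63 at 12 h and -0.82 at 24 h, and the median over all genes stayed between -0.06 and 0.00. The 4 times share the 3 vehicle arrays. Free text in the labels gives 24 h for these, so differences at 2, 6 and 12 h are not from a vehicle of the same time.

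In Tsc2-null cells Eno2 read 10.13 to 10.30 with vehicle, 9.73 and 9.70 at 2 h, 8.65 and 8.55 at 6 h, 8.99 and 8.98 at 12 h and 9.15 and 9.06 at 24 h. All rapamycin arrays lay below all vehicle arrays, and those at 6 h were the lowest. The difference from vehicle was -0.52 ± 0.13 at 2 h (adjusted p = 0.0401), -1.63 ± 0.13 at 6 h (3.1-fold lower, adjusted p = 1.07e-08), -1.25 at 12 h (adjusted p = 1.33e-07) and -1.13 at 24 h (adjusted p = 3.8e-07). At 6 h Eno2 ranked 8 from the lowest of 18162 genes. The 2 h call was lost without any 1 of the 5 arrays behind it (adjusted p 0.0576 to 0.22), under median centring (adjusted p = 0.0808) and with the replicate number as a block (adjusted p = 0.0872).

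Aldoc in Tsc2-null cells read 12.13 to 12.25 with vehicle, 12.23 and 12.22 at 2 h, 11.98 and 11.89 at 6 h, 11.36 and 11.58 at 12 h and 11.06 and 10.87 at 24 h. From 6 h on its arrays lay below the vehicle arrays, and each time lay below the one before. The differences at 6, 12 and 24 h were -0.27 ± 0.12 (adjusted p = 0.135), -0.74 ± 0.12 (adjusted p = 4.79e-05) and -1.24 ± 0.12 (2.36-fold lower, adjusted p = 3.15e-08). From the authors' deposited table the 6 h difference was also -0.27 and called by limma (adjusted p = 2.99e-05). All Tsc1-null and wild-type arrays are 0 there, which makes the pooled spread small, so that call adds no separate support. On the second probe set Aldoc was called lower at 6 h (-0.56, adjusted p = 0.00733). It was lower at 24 h than at 12 h by 0.50 (adjusted p = 0.0242), where 7.0% of genes were called and 4.31% lower, a call lost without either 24 h array or without 12 h replicate 2 (adjusted p 0.0506 to 0.22).

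Aldoa in Tsc2-null cells read 13.52 to 13.53 with vehicle, 13.49 and 13.52 at 2 h, 13.43 and 13.40 at 6 h, 12.91 and 12.93 at 12 h and 12.76 and 12.72 at 24 h. Its steepest step lay between 6 and 12 h. The difference from vehicle was -0.60 ± 0.06 at 12 h (adjusted p = 5.23e-08) and -0.79 ± 0.06 at 24 h (1.72-fold lower, adjusted p = 5.08e-10). Tpi1 and Pgam1 ran alongside: Tpi1 was lower by 0.63 at 12 h (adjusted p = 2.42e-07) and 0.75 at 24 h (adjusted p = 1.04e-08). Pgam1 was lower by 0.26 at 6 h (adjusted p = 0.0116), 0.64 at 12 h (adjusted p = 3.76e-07) and 0.85 at 24 h (adjusted p = 3.85e-09); its 6 h call was lost without 6 h replicate 1 (adjusted p = 0.0993) and in the authors' deposited table (-0.0691, adjusted p = 0.883).

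Pgk1 changed least of the 6 in Tsc2-null cells from 12 h on. It read 13.99 to 14.08 with vehicle, 13.70 and 13.75 at 12 h and 13.59 and 13.66 at 24 h, with no overlap with vehicle at either time. It was lower by 0.30 ± 0.07 at 12 h (adjusted p = 0.00169) and 0.40 ± 0.07 at 24 h (adjusted p = 7.53e-05). From the authors' deposited table neither its 12 h difference (-0.31, adjusted p = 0.169) nor its 24 h difference (-0.0044) was called.

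In Tsc1-null cells Tpi1 and Pgam1 fell by 0.79 and 0.86 at 24 h of rapamycin, Aldoa fell at 12 and 24 h, and Eno2 was lower at 6 and 12 h. At 2 h limma called 0 of 6 members (3.26% of genes were called), with 1 of 6, Eno2, at an unadjusted p under 0.05, and every alternative fit also called 0. At 6 h 4 members were called lower (22.5% of genes called, 13.0% lower), at 12 h 5 (23.8% called, 11.7% lower) and at 24 h 4 (29.6% called, 18.0% lower). The median of the 6 differences was -0.04 at 2 h, -0.35 at 6 h, -0.45 at 12 h and -0.36 at 24 h, and over all genes it ran from -0.02 to 0.06. Here too the free text gives 24 h for the vehicle plates.

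Pgam1 in Tsc1-null cells read 13.09 to 13.25 with vehicle, 13.12 and 13.14 at 2 h, 12.75 and 12.68 at 6 h, 12.29 and 12.45 at 12 h and 12.24 and 12.38 at 24 h. From 6 h on no rapamycin array reached the vehicle range, and the 12 h and 24 h arrays overlapped. It was lower by 0.46 ± 0.07 at 6 h (adjusted p = 8.43e-05), 0.81 ± 0.07 at 12 h (adjusted p = 2.84e-08) and 0.86 ± 0.07 at 24 h (1.82-fold, adjusted p = 5.78e-09). Tpi1 followed the same course, lower by 0.32 at 6 h (adjusted p = 0.00159), 0.70 at 12 h (adjusted p = 9.95e-08) and 0.79 at 24 h (1.73-fold, adjusted p = 9.06e-09). From the authors' deposited table the 6 h differences were not called, at -0.0312 for Tpi1 and -0.35 for Pgam1 (adjusted p = 0.107).

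Eno2 in Tsc1-null cells read 7.80 to 8.23 with vehicle, 7.69 and 7.70 at 2 h, 7.18 and 6.997 at 6 h, 7.59 and 7.70 at 12 h and 7.62 and 8.01 at 24 h. The 6 h arrays were again the lowest, and the 24 h arrays overlapped with vehicle. The difference was -0.95 ± 0.13 at 6 h (1.94-fold lower, adjusted p = 2.01e-05), -0.40 at 12 h (adjusted p = 0.0314) and -0.22 at 24 h (adjusted p = 0.247). The 12 h call was lost without vehicle replicate 2 or 3 or without either 12 h array (adjusted p 0.0763 to 0.203), with the replicate number as a block (adjusted p = 0.0577), under median centring (adjusted p = 0.0568) and with only the compared groups (adjusted p = 0.0513).

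Aldoa in Tsc1-null cells read 13.62 to 13.71 with vehicle, 13.76 and 13.81 at 2 h, 13.64 and 13.62 at 6 h, 13.46 and 13.47 at 12 h and 13.19 and 13.16 at 24 h. Only the 12 h and 24 h arrays lay below the vehicle arrays. For these plates free text in the labels gives 11 and 14 h. The difference was -0.21 ± 0.06 at 12 h (adjusted p = 0.0105) and -0.50 ± 0.06 at 24 h (1.42-fold lower, adjusted p = 7.81e-07). It was lower at 24 h than at 12 h by 0.29 (adjusted p = 0.00952), where 6.66% of genes were called and 5.24% lower, a call lost without 24 h replicate 2 or either 12 h array (adjusted p 0.0594 to 0.1), with only the compared groups (adjusted p = 0.206), in the authors' deposited table (adjusted p = 0.166) and on 2 other probe sets (adjusted p 0.0509 to 0.99). The 12 h call was lost without either 12 h array (adjusted p 0.0662 to 0.0811), under median centring (adjusted p = 0.0605), with only the compared groups (adjusted p = 0.0884) and on 3 of the 4 other Aldoa probe sets (-0.22, -0.19 and -0.0242, adjusted p 0.0543 to 0.917). From the authors' deposited table the 12 h difference was 0.0271, on the other side of 0, and the 24 h difference of -0.37 was not called (adjusted p = 0.078).

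Aldoc was lower in Tsc1-null cells by 0.38 at 6 h (adjusted p = 0.029) and 0.50 at 12 h (adjusted p = 0.00393), from values near the array median, and the difference at 24 h was -0.16 (adjusted p = 0.383). The 6 h call was lost without vehicle replicate 2 (adjusted p = 0.141) or 6 h replicate 1 (adjusted p = 0.319) and the 12 h call without 12 h replicate 1 (adjusted p = 0.143). The 6 h call was also lost with 64 added (adjusted p = 0.0718) and with only the compared groups (adjusted p = 0.0789). On the second Aldoc probe set these differences were -0.0208 at 6 h and 0.0027 at 12 h, and the authors' deposited table lists 0 throughout. Pgk1 was called lower at 24 h alone, by 0.22 ± 0.07 (adjusted p = 0.0203), a call lost without vehicle replicate 1 or 2 or without either 24 h array (adjusted p 0.0596 to 0.106), with only the compared groups (adjusted p = 0.127) and in the authors' deposited table (-0.0229). Its 12 h difference of -0.16 was not called (adjusted p = 0.119), but it was called on both other Pgk1 probe sets (-0.27 and -0.24, adjusted p = 0.00316 and 0.0162). In an F test over all 4 times, all 6 members were called in Tsc2-null cells (40% of genes) and 5 in Tsc1-null cells (38.1% of genes), where Pgk1 had an adjusted p of 0.066.

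**Figure D2:**
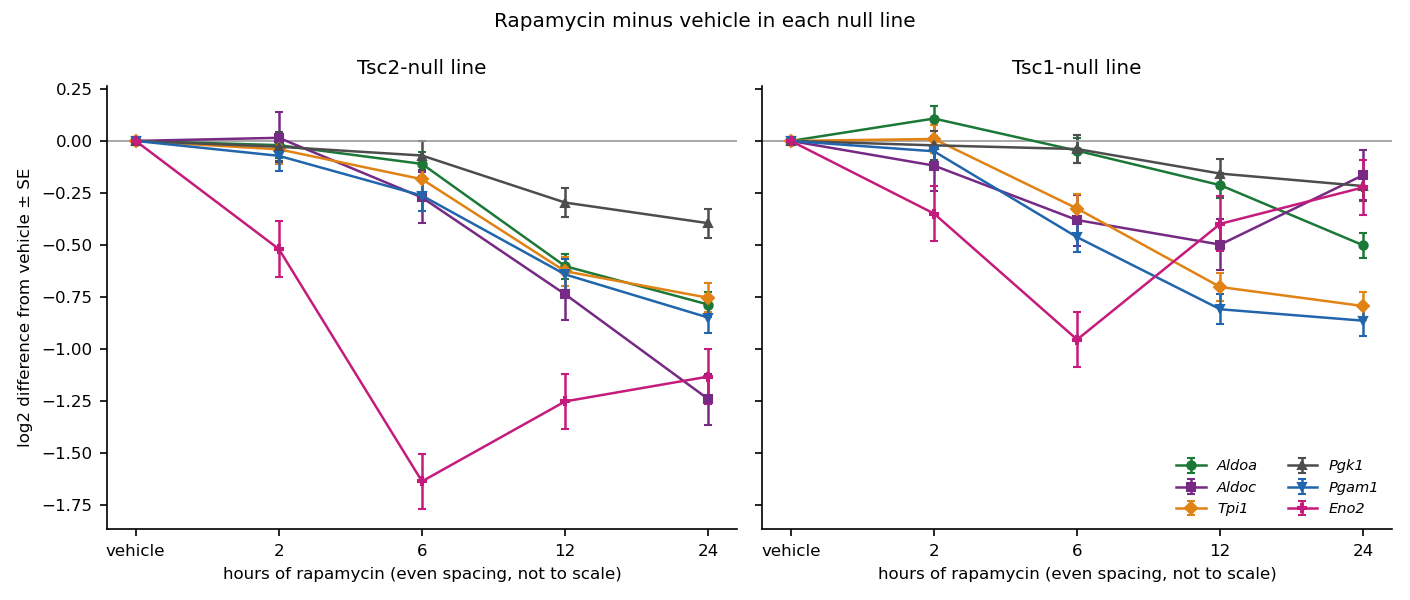
Log2 difference from the vehicle of the same line (y axis, ± SE of the fit) for each enzyme at 2, 6, 12 and 24 h of rapamycin (x axis, evenly spaced), in Tsc2-null cells at left and Tsc1-null cells at right. Eno2 is lowest at 6 h in both lines, at -1.63 and -0.95, while Tpi1 and Pgam1 reach -0.75 and -0.85 in Tsc2-null and -0.79 and -0.86 in Tsc1-null cells at 24 h.

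The low point of Eno2 at 6 h was followed up with a contrast of 24 h against 6 h, chosen after these values were seen. Eno2 was higher at 24 h than at 6 h by 0.50 ± 0.15 in the Tsc2-null line (adjusted p = 0.0166) and by 0.73 ± 0.15 in the Tsc1-null line (adjusted p = 0.00117). In Tsc2-null cells the other 5 members were all called lower at 24 h than at 6 h, by 0.32 to 0.97, where 18.6% of genes were called, 10.6% lower and 7.99% higher. In Tsc1-null cells Aldoa, Tpi1 and Pgam1 were called lower, by 0.40 to 0.47, where 17.4% of genes were called, 9.37% lower and 8.01% higher. The Tsc2-null call of Eno2 was lost without 24 h replicate 1 (adjusted p = 0.115) or 6 h replicate 2 (adjusted p = 0.102). In Tsc2-null cells the Pgk1 call was lost with only the compared groups (adjusted p = 0.0951), and in the authors' deposited table the Aldoa (adjusted p = 0.0799), Tpi1 (adjusted p = 0.0886) and Pgk1 (0.0736) differences were not called. In Tsc1-null cells the Aldoa call was lost on the fifth probe set (adjusted p = 0.42).

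Whether the lines differed in their response was tested as the interaction of line and rapamycin, given as the Tsc1-null change minus the Tsc2-null change. At 2 h limma called 0 of 6 members (0.105% of genes), none at an unadjusted p under 0.05, and every alternative fit also called 0. At 6 h 1 member was called (4.16% of genes, 1.28% in its direction), at 12 h 2 (11.3%, with 5.87%) and at 24 h 3 (20.2%, with 8.14%), all toward a smaller fall in Tsc1-null cells. For the Tsc1-null plates titled 12 and 24 h, free text in the labels gives 11 and 14 h. The lines may thus differ in length of exposure at these times, and the part of exposure was not tested. With vehicle Aldoc read 6.29 to 6.70 in Tsc1-null cells, near the array medians, and averaged 3.83 on the second probe set. The part of this low starting level in its interactions was not tested. At 24 h Aldoc had changed by -0.16 in Tsc1-null and -1.24 in Tsc2-null cells, an interaction of 1.08 ± 0.17 (adjusted p = 8.09e-05). Eno2 had changed by -0.22 and -1.13 in the same order, an interaction of 0.91 ± 0.19 (adjusted p = 0.00106), after 0.85 ± 0.19 at 12 h (adjusted p = 0.00388) and 0.68 ± 0.19 at 6 h (adjusted p = 0.043). Aldoa differed by 0.39 ± 0.08 at 12 h (adjusted p = 0.00343) and 0.28 ± 0.08 at 24 h (adjusted p = 0.0182). For Tpi1, Pgk1 and Pgam1 the 24 h interactions were -0.04 ± 0.10, 0.18 ± 0.10 and -0.01 ± 0.10, and none was called. The Eno2 call at 6 h was lost without 9 of the 10 arrays in turn (adjusted p 0.0531 to 0.172) and with the replicate number as a block (adjusted p = 0.0635), and the Aldoa call at 24 h without Tsc2-null 24 h replicate 2 (adjusted p = 0.0592) or Tsc1-null 24 h replicate 1 (adjusted p = 0.0642). The Eno2 call at 6 h was also lost under median centring (adjusted p = 0.103). The Aldoa call at 24 h was also lost under median centring (adjusted p = 0.0826), with only the compared groups (adjusted p = 0.0805) and in the authors' deposited table (0.14, adjusted p = 0.708). The Aldoa call at 12 h was lost on the fifth probe set (0.31, adjusted p = 0.164) and in the authors' deposited table (0.52, adjusted p = 0.126). The Aldoc interaction at 12 h was 0.24 and not called, but 0.79 and called on the second probe set (adjusted p = 0.0147).

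After 24 h of rapamycin, Aldoa and Pgam1 in Tsc2-null cells were not called different from wild-type vehicle, and the other 4 members were still called higher (41.6% of genes called, 20.8% higher). Aldoa read 12.76 and 12.72 in Tsc2-null cells at 24 h, against 12.66, 12.63 and 12.65 in wild type, and the ranges did not overlap. Its difference was 0.09 ± 0.06 (adjusted p = 0.262), against 0.88 with vehicle, and that of Pgam1 was 0.08 ± 0.07 (adjusted p = 0.45), against 0.93. Aldoc remained higher by 3.00 ± 0.12 (adjusted p = 4.29e-15), Eno2 by 1.36 ± 0.13 (adjusted p = 1.36e-08) and Tpi1 by 0.97 ± 0.07 (adjusted p = 7.28e-11). On the second Aldoc probe set the difference that remained was 0.33 and not called (adjusted p = 0.0704). The 0.18 of Pgk1 (adjusted p = 0.0363) was not called without wild-type replicate 1 or 2 or without either 24 h array (adjusted p 0.0572 to 0.214), nor with the replicate number as a block (adjusted p = 0.0689), under median centring (adjusted p = 0.0792), with only the compared groups (adjusted p = 0.153) or in the authors' deposited table (adjusted p = 0.569). The Aldoa difference was called with 64 added (0.0895, adjusted p = 0.0281).

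In Tsc1-null cells at 24 h, 3 members were called higher and 2 lower than in wild-type vehicle (38.5% of genes called, 16.8% higher and 21.7% lower). Tpi1 remained higher by 0.68 ± 0.07 (adjusted p = 3.61e-08), Aldoa by 0.53 ± 0.06 (adjusted p = 1.62e-07) and Pgk1 by 0.33 ± 0.07 (adjusted p = 0.00054). Pgam1 read 12.24 and 12.38, below the 12.60, 12.59 and 12.68 of wild type, and was lower by 0.31 (SE 0.07, adjusted p = 0.00132), although with vehicle it had been higher. Pgk1 (0.0575, adjusted p = 0.869), Aldoa (0.39, adjusted p = 0.0541) and Pgam1 (-0.38, adjusted p = 0.0521) were not called from the authors' deposited table. Aldoc was lower by 1.70 (adjusted p = 1.21e-10), on the probe set kept and not on the second (adjusted p = 0.616).

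**Figure D3:**
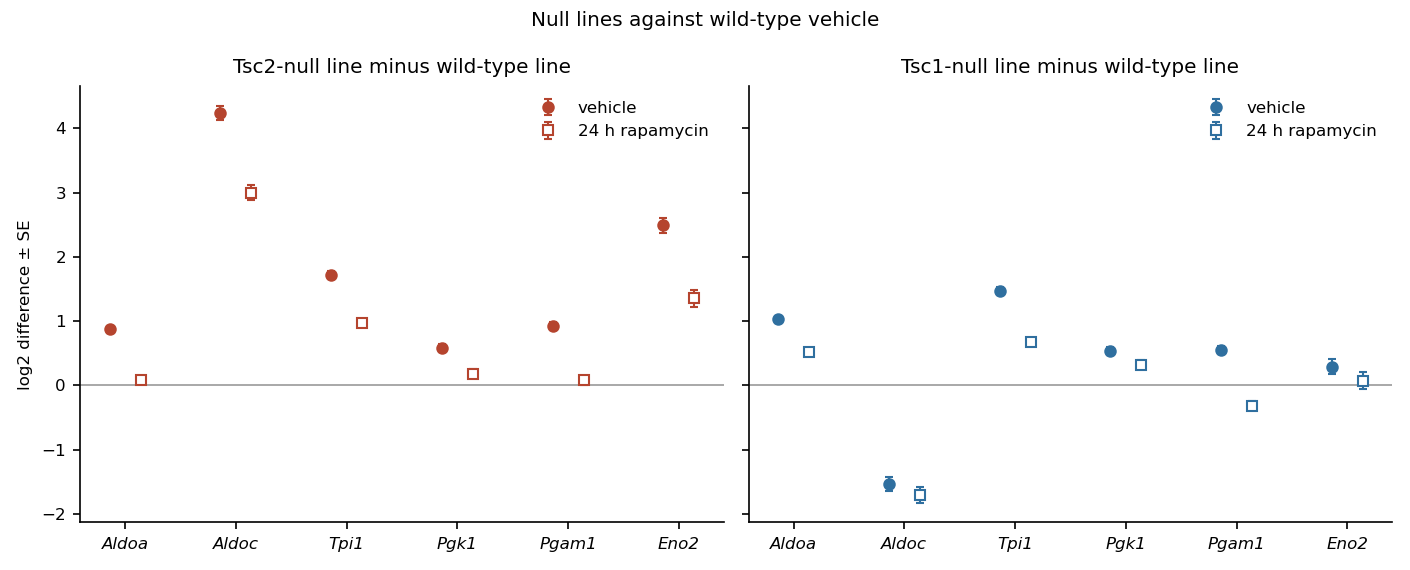
Log2 difference from wild-type vehicle (y axis, ± SE of the fit) for each enzyme in Tsc2-null cells at left and Tsc1-null cells at right, with vehicle (filled circles) and after 24 h of rapamycin (open squares). In Tsc2-null cells Aldoa and Pgam1 reach 0.09 and 0.08 after rapamycin while Aldoc stays at 3.00; in Tsc1-null cells Pgam1 crosses to -0.31.

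Over the 11 group means, the order of levels differed between members. Aldoa was highest in Tsc1-null cells at 2 h and lowest in wild type, with 9 of 10 neighbouring groups apart. Tpi1 and Pgk1 were highest in Tsc2-null vehicle and lowest in wild type, with 6 and 5 of 10 neighbours apart. Aldoc ran from 12.22 in Tsc2-null cells at 2 h to 5.93 in Tsc1-null cells at 12 h, with the 5 Tsc2-null groups above wild type and the 5 Tsc1-null groups, which did not separate from their neighbours, below it. Pgam1 was highest in Tsc2-null vehicle and lowest in Tsc1-null cells at 24 h, and wild type, Tsc2-null at 24 h and Tsc1-null at 6 h were neighbours that overlapped. Eno2 was highest in Tsc2-null vehicle, and all 5 Tsc2-null groups were above all other groups.

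As a description over these 11 means, which share lines and vehicle arrays, Aldoa and Pgk1 ran most alike (Pearson r = 0.93), followed by Aldoc with Eno2 (0.90) and Tpi1 with Pgk1 (0.90), while Aldoa and Aldoc had r = -0.28. Tpi1 and Pgam1 had r = 0.83. With ranks in place of values the order changed: Tpi1 and Pgam1 came first (Spearman 0.95), Aldoc with Eno2 had 0.90, Pgk1 was nearest to Tpi1 (0.89), and Aldoa with Pgk1 had 0.81. Outside the set, the genes with the most similar means were Tpp1 and Skap2 for Aldoa (both 0.97), Wasf1 and Igf2r for Aldoc (both 0.99), Mfap3 and P4ha2 for Tpi1 (both 0.98), Psmb7 and Idh1 for Pgk1 (both 0.97), Slc25a1 and Pdk3 for Pgam1 (0.99 and 0.98) and Zfp950 and Ccdc115 for Eno2 (0.98 and 0.97). By ranks, only Mfap3 for Tpi1 stayed among the nearest pair.

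Where a gene had several probe sets, most gave the same directions with vehicle and at 24 h. The 5 Aldoa probe sets were higher by 0.59 to 1.06 in the Tsc2-null line and by 0.59 to 1.30 in the Tsc1-null line than in wild type, and lower at 24 h by 0.51 to 0.97 in Tsc2-null cells. In Tsc1-null cells at 24 h the fifth Aldoa probe set gave -0.03 (adjusted p = 0.882), against -0.50 to -0.59 on the other 4. The 3 Tpi1 and the 3 Pgk1 probe sets were called alike in both null lines and at 24 h. Names of the Aldoa and some Tpi1 and Pgk1 probe sets end in _x_at, the maker's mark for probes that may also bind other transcripts, and how much they did was not tested.

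Gapdh, which acts between Tpi1 and Pgk1, was named alone only by 3 control probe sets of the array, given here as values with no test. The middle one averaged 14.47 in the Tsc2-null line and 14.35 in the Tsc1-null line with vehicle, against 13.68 in wild type, and 14.10 and 13.95 in Tsc2-null and Tsc1-null cells at 24 h. Every null array with vehicle lay above every wild-type array. The 3′ minus 5′ difference of these probe sets, a sign of RNA quality, was -0.01 to 0.00 in Tsc2-null and -0.00 to 0.04 in Tsc1-null vehicle, against -0.13 to -0.08 in wild type. At 24 h of rapamycin it was -0.0594 to -0.0235 in Tsc2-null and -0.0562 to -0.0401 in Tsc1-null cells, below the vehicle arrays of the same line with no overlap. It moved with genotype and with 24 h of rapamycin, and its part in the members' results was not tested. Eno1 and Eno1b were not analysed here.

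Of 6 measured paralogues at the same steps, Bpgm, which makes and breaks 2,3-bisphosphoglycerate, was called with the members: it was 1.65 higher in Tsc2-null (adjusted p = 1.29e-14) and 1.26 higher in Tsc1-null cells (adjusted p = 1.93e-12) than in wild type. Its change at 24 h of rapamycin was -1.10 in the Tsc2-null line and -0.82 in the Tsc1-null line. Eno3, the muscle enolase, ran lower than wild type by 0.22 in the Tsc2-null line and 0.35 in the Tsc1-null line, and changed at 24 h by -0.76 and -0.41. In all, 3 of the 6 were called higher and 1 lower in Tsc2-null cells, the others being Eno4 (0.36) and Gapdhs (0.27), and 1 was called higher and 1 lower in Tsc1-null cells; the medians were 0.12 and 0.10. At 24 h of rapamycin 3 of the 6 were called lower in each line. Pgam2, the muscle mutase, had differences of -0.03 and -0.04 and was not called. Of 9 skeletal muscle markers, 3 were called higher and 1 lower in Tsc2-null and 2 higher and 1 lower in Tsc1-null cells, none above a log2 value of 8 with vehicle. Beside these counts stand the same 45.0% and 42.1% of all genes called. Tnnt3, a troponin, was 1.08 higher in the Tsc2-null line, while Acta1, the skeletal actin, was lower in both (-0.52 and -0.55).

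Most genes of the steps before and after the segment were called higher in the null lines, and most were called lower at 24 h of rapamycin. This list, like the others here, was chosen with earlier results of these data known. Of 16 measured genes of glucose uptake, upper glycolysis, pyruvate and lactate handling, 14 were called higher in Tsc2-null cells (median 1.54) and 13 higher and 1 lower in Tsc1-null cells (median 1.00), beside 23.6% and 21.3% of all genes called higher. At 24 h of rapamycin 11 were called lower and 3 higher in Tsc2-null cells (median -0.997), and 10 were called lower in Tsc1-null cells (median -0.64), beside 18.1% and 18.0% of all genes called lower. Pfkp, a phosphofructokinase, was 2.30 higher in the Tsc2-null line and 2.80 higher in the Tsc1-null line, and its 24 h changes were -2.74 and -2.15. Pfkfb3, which makes the activator fructose 2,6-bisphosphate, was 3.60 and 2.16 higher, and Pdk1, which holds pyruvate dehydrogenase inactive, 2.15 and 2.32 higher, in the same order of lines. Ldhb, a lactate dehydrogenase subunit, was 0.62 and 2.19 higher and at 24 h was called higher in the Tsc2-null line (0.94). Slc16a3, the lactate exporter MCT4, was split like Aldoc: its difference was 5.44 in the Tsc2-null line (adjusted p = 1.39e-21) and 0.09 in the Tsc1-null line, where it was not called.

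**Figure D4:**
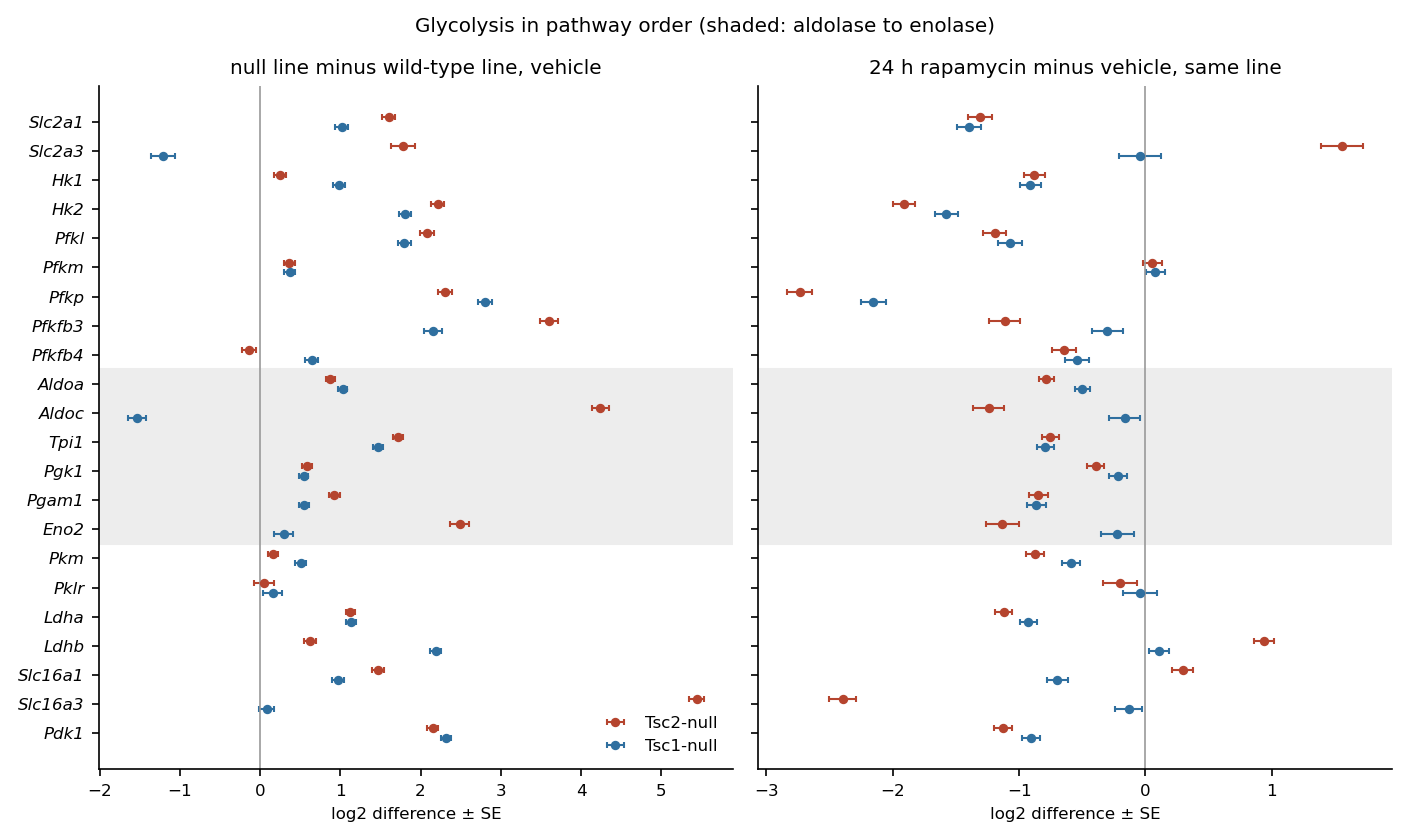
Log2 difference (x axis, ± SE of the fit) for 22 glycolysis genes in pathway order from glucose uptake at the top to lactate and pyruvate handling at the bottom, as null line minus wild type with vehicle at left and 24 h of rapamycin minus vehicle at right, in Tsc2-null and Tsc1-null cells. The 6 members are shaded; Aldoc and Slc16a3 lie farthest to the right in the left panel, at 4.24 and 5.44 in Tsc2-null cells, and at -1.54 and 0.09 in Tsc1-null cells.

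Of 9 genes that draw on triose phosphates and 3-phosphoglycerate, 4 were called higher and 1 lower in Tsc2-null (median 0.10) and 8 higher in Tsc1-null cells (median 1.00). At 24 h of rapamycin 6 were called lower in the Tsc2-null line and 7 in the Tsc1-null line, beside 18.1% and 18.0% of all genes. Psph, the last enzyme of serine synthesis, was 1.30 higher in the Tsc2-null line and 1.88 higher in the Tsc1-null line, with 24 h changes of -2.38 and -2.51. Pgp, which removes phosphoglycolate, was 2.25 and 1.27 higher, with 24 h changes of -1.93 and -1.32. Glo1, which detoxifies methylglyoxal, was 0.81 and 0.77 higher, and Gpd1l was higher in the Tsc1-null line (1.65), with a difference of -0.00 in the Tsc2-null line. Of 6 measured gluconeogenesis genes, 3 were called lower in Tsc2-null cells and 2 higher and 1 lower in Tsc1-null cells (medians -0.30 and 0.04). Over all genes 45.0% and 42.1% were called in either direction. G6pc3, a glucose 6-phosphatase, was lower in both lines (-0.58 and -0.37). Pck2 and Pcx were lower in the Tsc2-null line (-0.47 and -0.38) and higher in the Tsc1-null line (0.91 and 0.50).

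Of 11 measured HIF targets outside glycolysis, 8 were called higher and 1 lower in Tsc2-null (median 0.96) and 10 higher and 1 lower in Tsc1-null cells (median 1.80). At 24 h of rapamycin 8 were called lower and 1 higher in Tsc2-null cells and 10 were called lower in Tsc1-null cells (medians -0.77 and -1.11). P4ha2, a collagen prolyl hydroxylase whose means also ran close to those of Tpi1, was 2.75 higher in the Tsc2-null line and 2.18 higher in the Tsc1-null line. Higd1a (2.33 and 2.22) and Bnip3, a mitophagy receptor (2.21 and 2.63), were also higher in both. Adm, a vasodilator peptide, was called lower in both (-2.08 and -2.65). Car9, carbonic anhydrase 9, was split the other way from Aldoc: its difference was 0.08 in the Tsc2-null line (not called) and 4.67 in the Tsc1-null line (adjusted p = 1.33e-19). Of 8 HIF regulators, 7 were called higher in the Tsc2-null line and 5 in the Tsc1-null line (medians 0.37 and 0.25), and at 24 h of rapamycin 3 were called lower in each line and 1 higher in the Tsc1-null line. Beside the counts of both HIF lists stand 23.6% (Tsc2-null) and 21.3% (Tsc1-null) of all genes called higher than wild type. In either direction 45.0% and 42.1% were called, in the same order of lines. At 24 h of rapamycin the shares called lower were 18.1% and 18.0%. Egln3, an oxygen sensor that is itself a HIF target, was 3.26 higher in both, with 24 h changes of -2.09 and -2.16. Vhl was 1.32 and 0.85 higher, Hif1a 0.51 and 0.21, and Arnt, the partner of HIF1A, 0.30 and 1.26.

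Markers of other cell types were read for the comparisons with wild type and for 24 h of rapamycin. Against wild type, 45.0% (Tsc2-null) and 42.1% (Tsc1-null) of all genes were called in either direction. At 24 h of rapamycin these shares were 35.6% and 29.6%. Of 7 macrophage and leukocyte markers, 1 was called higher (Cd68, 0.74) and 1 lower (Cd14, -0.72) in the Tsc2-null line, and 2 higher (Cd14, 1.08; Cd68, 0.32) and 1 lower (Csf1r, -0.32) in the Tsc1-null line. Of 8 epithelium and endothelium markers, 2 were called higher and 2 lower in Tsc2-null and 1 higher and 2 lower in Tsc1-null cells. Cdh1, an epithelial cadherin, was 4.19 higher in Tsc2-null cells, at 8.04 against 3.85 in wild type, and Krt18, a keratin, was lower in both lines (-1.60 and -4.18). Fibroblast markers were called lower for 7 of 10 in each null line, among them Pdgfrb (-2.47 and -0.88) and S100a4 (-1.92 and -0.51). Others read above the wild-type mean. In Tsc2-null cells with vehicle Col3a1 averaged 14.03 and Fn1 13.39, against 13.61 and 13.35 in wild type. In Tsc1-null cells Pdgfra averaged 11.87 and Fn1 13.62, against 11.32 and 13.35. At 24 h of rapamycin 7 of the 10 fibroblast markers were called higher in the Tsc2-null line and 5 in the Tsc1-null line. The members called at that time were lower, and the part of the fibroblast markers in the members' results was not tested. The summed level of the epithelium and endothelium markers at 24 h was 2340 to 2455 in Tsc2-null cells, against 1331 to 1369 with vehicle, and 4 of 8 were called higher; in Tsc1-null cells it was 1096 to 1124, against 1079 to 1164, with 2 called higher and 1 lower. The sum of the glia markers at 24 h was 1248 to 1318 in Tsc2-null cells, against 956 to 992 with vehicle, and 1160 to 1174 in Tsc1-null cells, against 767 to 891. Of 8 glia markers 2 were called higher in the Tsc2-null line and 1 in the Tsc1-null line. Of the macrophage and leukocyte markers 2 were called higher at 24 h in the Tsc2-null line (Cd68, 0.56; Cd14, 0.46) and 1 lower in the Tsc1-null line (Cd14, -0.36). Of the neuron markers 2 were called lower at 24 h in the Tsc2-null line and none in the Tsc1-null line. The part of these markers in the members' changes with rapamycin was not tested.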

How the data were processed

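Total RNA of 25 plates was labelled and hybridised to 1 Affymetrix array each, per the labels' protocols. The authors deposited log2 expression values per probe set, made with RMA per the submitters' processing notes, which also name limma. For the chip definition, the sources used here give none. The authors' deposited table of log2 ratios to wild type was used as an alternative; 61.4% of its probe sets are 0 on every array, by a rule that the labels leave unstated. Groups and times follow the sample titles; for the Tsc1-null plates titled 24 and 12 h, free text in the labels gives 14 and 11 h.

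Of 45101 probe sets, 34945 name 1 gene, 932 several and 9160 none, and 64 are controls; the annotation was GEO's platform table. The probe set with the highest mean was kept for each of 18162 genes. All 25 arrays entered 1 limma fit (limma 3.58.1, R 4.3.3) with a mean per group, 14 residual degrees of freedom, moderated two-sided tests and Benjamini-Hochberg adjustment over all genes. The procedure was tested on simulated data. Genes were named by rule: the members, the 2 nearest genes of each by Pearson correlation of group means and the paralogues at the same steps. Up to 3 of each list with the smallest p in each null line against wild type were also named. Gfap was added as the defining astrocyte marker, and Col3a1, Fn1 and Pdgfra as fibroblast markers that read above wild type. The members and lists were chosen with earlier results of these data known. The number of arrays limits the precision. Alternatives were quantile normalization, median centring, 64 added to the linear value, omission of the dimmest 40% of genes, other probe sets, other limma settings, a replicate block, each array left out, and the authors' ratios.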

Additional observations from a re-analysis of the deposited data

Results flagged for a closer look

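The line by rapamycin difference, taken as the Tsc1-null change minus the Tsc2-null change, was called for 3 enzymes by limma with Benjamini-Hochberg adjustment. Eno2 differed by 0.68 at 6 h, 0.85 at 12 h and 0.91 at 24 h. Aldoa differed by 0.39 at 12 h and 0.28 at 24 h. The Aldoa calls were not firm: that at 24 h was lost under median centring (adjusted p = 0.0826), with only the compared groups (adjusted p = 0.0805) and in the authors' deposited table (0.14, adjusted p = 0.708), and that at 12 h in the authors' deposited table (adjusted p = 0.126) and on 1 other probe set (adjusted p = 0.164). The Eno2 call at 6 h was lost with a replicate block (adjusted p = 0.0635) and under median centring (adjusted p = 0.103). Aldoc differed by 1.08 at 24 h. All 6 differences were toward a smaller fall in Tsc1-null cells, where Aldoc and Eno2 with vehicle were also lower, at 6.43 and 8.04 in Tsc1-null against 12.21 and 10.24 in Tsc2-null cells. The part of that starting level in the difference was not tested. Nor was the part of exposure, since free text in the labels gives 14 and 11 h for the Tsc1-null plates titled 24 and 12 h.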

How the results depend on the processing

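Same-numbered arrays had correlations of deviations from -0.29 to 0.23 over 25 pairs, 9 of them over 0.1. Arrays of different numbers were not read beside them, so whether the replicate numbers pair the plates stays undecided. The main fit left the numbers out. With the replicate number as a block, the members called fell to 0 for Tsc2-null at 2 h and 0 for the 6 h interaction. Median centring also gave 0 for both, and 3 for Tsc1-null at 12 h. Fitting only the compared groups gave 3 for Tsc1-null at 12 h and 0 for Tsc1-null 24 h minus 12 h.

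For Tsc2-null at 6 h, quantile normalization, the mean of all probe sets and the trend and robust setting each gave 4 calls, and adding 64 gave 5. For Tsc2-null 24 h minus 12 h, quantile normalization, adding 64 and the trend and robust setting gave 3, and omission of dim genes and the mean of all probe sets gave 2. From the authors' deposited table the calls were 3 for Tsc1-null and 1 for Tsc1-null at 24 h, each against wild type, 2 for Tsc1-null against Tsc2-null, 1, 3 and 2 for Tsc1-null at 6, 12 and 24 h, 2 for the 6 h interaction, 0 for Tsc1-null 24 h minus 12 h, and 3 for Tsc2-null 24 h minus 6 h. Aldoc calls from that table rest on a pooled spread made small by values of 0 on all Tsc1-null and wild-type arrays.

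There were 1031 alternatives, nearly all for 97 results on single members. The few others were for the genes most like a member and have no sign. In all, 22 changed sign, 3 of them for called differences. The called ones were Aldoa (0.0271) and Aldoc (0.0027) in Tsc1-null at 12 h, from the authors' deposited table and the second probe set, and Pgk1 in Tsc2-null 24 h minus 6 h (0.0736, the authors' deposited table). Differences not called that changed sign were, in Tsc1-null at 6 h, Aldoa (0.28, 0.0275 and 0.10) and Pgk1 (0.34), and Pgk1 at 12 h (0.11). Among interactions they were Aldoa (-0.0243), Aldoc (0.0609, 0.21, 0.27 and 0.54), Tpi1 (0.15) and Pgk1 (-0.0566) at 6 h, Tpi1 at 12 h (0.22 and 0.0107), and Tpi1 (0.11, 0.20 and 0.16), Pgk1 (-0.0185) and Pgam1 (0.0427) at 24 h. The causes were not tested.

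Leaving out 1 array at a time, the members called ranged from 5 to 6 for Tsc1-null and stayed at 6 for Tsc2-null against wild type, and ranged from 4 to 5 between the null lines. For rapamycin at 2, 6, 12 and 24 h they were 0, 1 to 2, 6 and 6 in Tsc2-null, and 0, 3 to 4, 2 to 5 and 3 to 4 in Tsc1-null cells. Signs that turned were those of differences not called: Pgk1 between the null lines (-0.0705 to 0.0057) and in Tsc1-null at 6 h (-0.0851 to 0.0071), Eno2 in Tsc1-null at 24 h against wild type (-0.1221 to 0.266), and the interactions of Aldoc (-0.2551 to 0.0387) and Pgk1 (-0.015 to 0.0772) at 6 h and of Tpi1 (-0.0796 to 0.0) and Pgam1 (-0.0846 to 0.0547) at 24 h.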
